A study of Mus musculus with 16 samples.

Results

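The genes described here encode 10 transcription factor subunits: the ETS factors Spi1, Spib, Etv6, Ets1, Elf1 and Fli1, the RUNX factors Runx1, Runx2 and Runx3, and their partner Cbfb. They were chosen by name, with earlier results of these data known, and all 10 were listed in both expression tables, among 18232 genes in the series. Expression was measured by RNA-seq in 16 libraries of dendritic cells (DCs) sorted from the spleen of C57BL/6 mice aged 6 to 8 weeks. WT mice were Trim33 fl/fl, and cKO mice were Trim33 fl/fl Itgax-Cre, labelled Trim33-/-, so that both genotypes carried the floxed allele and cKO mice also carried Cre under the promoter of Itgax, the gene of CD11c. There were 3 WT and 3 cKO libraries of plasmacytoid DCs (pDCs), 2 and 2 of conventional type 1 DCs (cDC1s), and 3 and 3 of conventional type 2 DCs (cDC2s). The study's gates for such sorts were CD11c and SiglecH for pDCs, and among SiglecH- MHC II+ cells CD24 without CD172a for cDC1s and the reverse for cDC2s. The study gives each library as a biological repeat pooled from several mice, with more mice in a cKO pool than in a WT pool, so p-values measure the spread between pools.

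ETS factors bind DNA through a conserved ETS domain that reads a GGAA core. PU.1, the product of Spi1, is required for the DC lineage and works with partners such as IRF4 and IRF8, and its close relative Spi-B is a factor of pDCs and B cells. RUNX factors bind DNA as a dimer with CBFβ, the product of Cbfb, which has no DNA contact of its own but raises the affinity of the RUNX subunit. RUNX factors act as activators or repressors, and in T cells they control Cd4 and Cd8a.

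Promoter letters are shown for 4 genes as examples, Spib and Runx3, which differed between WT cDC1s and WT cDC2s, and Etv6 and Runx1, which were lower in both cKO cDC1 libraries than in both WT ones. RefSeq promoters (GRCm38.p6) matched 7 of the 10 genes: Spib, Etv6, Elf1, Runx1, Runx2, Runx3 and Cbfb. These genes had 10 promoters in all. Those lying wholly or mostly within the gene were left out, so the letters below do not cover them. The strand of the gene is written 5′ to 3′ up to the most upstream start of the gene in RefSeq or GENCODE, and capitals mark the ETS core GGAA and the RUNX letters TGTGGT on either strand. Spib is shown for chr7:44532088-44532321 (minus strand), Etv6 for chr6:134035450-134035699 (plus), Runx1 for chr16:92826150-92826324 (minus) and Runx3 for chr4:135120395-135120644 (plus).
Spib: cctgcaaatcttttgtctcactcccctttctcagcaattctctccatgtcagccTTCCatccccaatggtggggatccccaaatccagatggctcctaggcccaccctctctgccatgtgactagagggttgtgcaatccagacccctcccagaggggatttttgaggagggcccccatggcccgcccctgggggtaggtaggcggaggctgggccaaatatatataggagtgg
Etv6: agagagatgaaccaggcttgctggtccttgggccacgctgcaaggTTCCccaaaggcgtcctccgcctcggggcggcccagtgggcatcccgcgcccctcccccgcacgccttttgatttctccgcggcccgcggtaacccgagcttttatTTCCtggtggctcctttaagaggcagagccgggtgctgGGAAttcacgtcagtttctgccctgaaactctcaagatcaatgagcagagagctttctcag
Runx1: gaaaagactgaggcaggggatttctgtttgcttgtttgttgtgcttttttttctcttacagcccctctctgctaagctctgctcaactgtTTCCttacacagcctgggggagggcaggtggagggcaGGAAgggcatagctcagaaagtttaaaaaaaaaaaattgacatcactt
Runx3: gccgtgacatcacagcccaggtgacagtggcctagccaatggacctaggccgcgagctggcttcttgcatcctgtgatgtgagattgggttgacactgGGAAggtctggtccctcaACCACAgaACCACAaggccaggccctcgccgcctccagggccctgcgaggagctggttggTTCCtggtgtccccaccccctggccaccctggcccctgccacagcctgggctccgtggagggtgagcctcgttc
The Runx3 letters held the RUNX motif 2 times and the ETS core 2 times. The ETS core stood 1 time in the Spib letters, 3 times in those of Etv6 and 2 times in those of Runx1, and the RUNX motif was in none of these 3. For Runx1 the GENCODE start lies upstream of the RefSeq one, and the whole 250-base window before the RefSeq start held the ETS core 4 times. Over the 250 bases before the start, 93.4% of all 32851 promoters held GGAA, 23.3% the PU.1-type letters GAGGAA, which contain GGAA, and 14.0% TGTGGT. An exon of the antisense noncoding gene Gm16225 lies over the first part of the Runx3 letters. A match of letters describes the sequence and is no measured binding site.

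Trim33 was lower in every cKO library than in every WT library of the same subset. In TPM, a level per transcript length scaled to the library total, it was 20.6 to 23.8 in WT and 11.7 to 16.5 in cKO pDCs, in cDC1s 15.5 to 18.2 and 7.71 to 7.88 TPM, and in cDC2s 17.2 to 20.6 and 7.13 to 8.07 TPM. By the test and threshold given below, its log2 fold change was −0.68 in pDCs, which did not pass. It was −1.02 in cDC1s and −1.17 in cDC2s, which both passed. The labels of the subsets were checked with marker genes. Summed TPM of 10 pDC markers was 17694 to 19612 in pDCs and at most 278.7 in cDCs, that of 8 cDC1 markers 3277 to 3700 in cDC1s and 445 to 617.7 in cDC2s, and that of 8 cDC2 markers 1402 to 1720 in cDC2s and 48.6 to 65.3 in cDC1s. The cDC2 list did not separate cDC2s from pDCs, where it summed to 1997 to 2279 TPM. Estimated depth was 16.8 to 20.5 M reads per library. In bulk samples, a smaller number of cells of a type and less RNA per cell cannot be told apart.

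Each DC subset had its own mixture of these factors. pDCs combined high Spib and Runx2 with Ets1, whereas both cDC subsets had high Spi1 and took most of their RUNX transcripts from Runx3. The pDC and cDC tables were made separately, so levels are set side by side across them without a test. Within each table, log2(TPM + 1) was tested with limma and Benjamini-Hochberg adjustment over all genes, and the study's limits were kept: a call needed an adjusted p no higher than 0.01 and a log2 fold change of 0.5 or more in either direction. Fold changes on this scale understate the change of low genes.

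**Figure D1:**
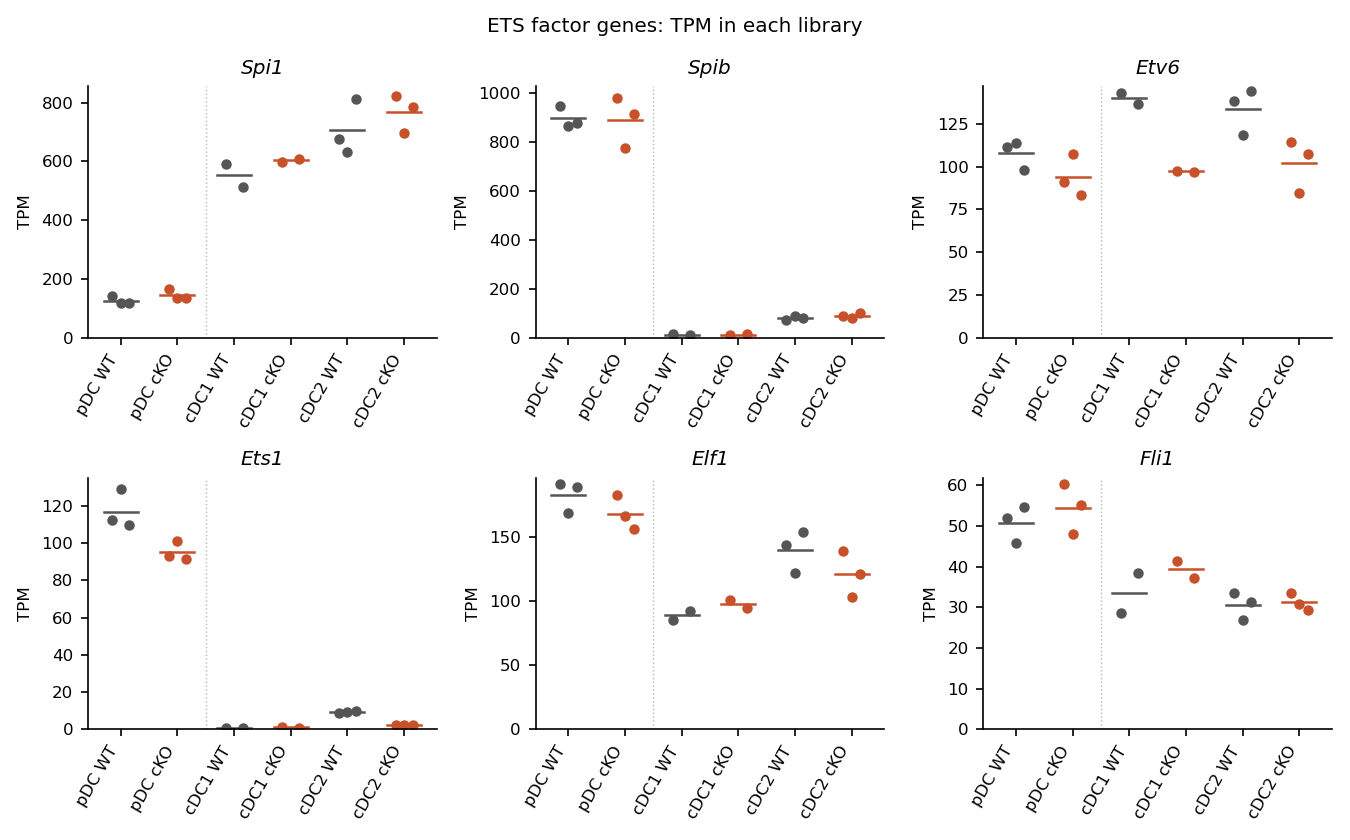
Levels of the 6 ETS factor genes in each library, as TPM on axes that start at 0; points are libraries, horizontal lines are group means, WT in grey and cKO in orange, and the dotted line separates the pDC and cDC tables. Ets1 stood at 91.6 to 129 TPM in pDCs and at 9.93 TPM or less in every cDC library.

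Spi1 was expressed in every library. Its TPM was 143, 118 and 117 in the WT pDC libraries and 167, 137 and 134 in the cKO ones. It was 593 and 512 in WT and 599 and 609 in cKO cDC1s, and in cDC2s 677, 632 and 814 in WT and 822, 696 and 785 in cKO libraries. All cDC libraries were therefore above all pDC libraries, the genotypes overlapped in pDCs and cDC2s, each cKO pDC library was above the WT one of the same number, and both cKO cDC1 libraries were above both WT ones. The log2 fold change in cKO cells was 0.21 in pDCs (95% interval −0.04 to 0.46, adjusted p 0.323, and 0.0299 with the replicate number as a block), 0.13 in cDC1s (−0.18 to 0.44, adjusted p 0.479, turning to −0.042 with median-of-ratios scaling) and 0.12 in cDC2s (−0.13 to 0.37, adjusted p 0.474). Between WT cDC1s and WT cDC2s it differed by −0.35 (SE 0.13, adjusted p 0.0406), which did not pass the threshold.

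Spib, the closest relative of Spi1 among the members, was instead highest in pDCs. It was at 947, 863 and 877 TPM in WT pDCs and 979, 775 and 914 TPM in cKO pDCs, rank 171 of 17128 genes by mean TPM in WT. In cDC2s it was 72.5, 88.3 and 79.3 TPM in WT and 87.6, 80.7 and 99.5 TPM in cKO libraries. The cDC1 libraries had 15.1 and 9.41 TPM in WT and 10.0 and 13.8 TPM in cKO. The order was pDCs, cDC2s, cDC1s with no overlap between subsets, and within each subset the genotypes overlapped. The log2 fold change of WT cDC1s over WT cDC2s was −2.64 (SE 0.19, adjusted p 1.78e-06), and mean TPM was 6.53-fold higher in cDC2s. The genotype effect was −0.02 in pDCs (95% interval −0.23 to 0.19, adjusted p 0.940), −0.02 in cDC1s (−0.49 to 0.45, adjusted p 0.950) and 0.16 in cDC2s (−0.23 to 0.54, adjusted p 0.562).

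A ratio of the 2 genes within a library does not depend on how libraries were scaled. Spib TPM over Spi1 TPM was 6.62, 7.32 and 7.48 in WT pDCs, 0.107, 0.140 and 0.0975 in WT cDC2s and 0.0254 and 0.0184 in WT cDC1s. In cKO libraries it was 5.87, 5.67 and 6.80 in pDCs, 0.107, 0.116 and 0.127 in cDC2s and 0.0167 and 0.0227 in cDC1s. Subsets were far apart in this ratio, and in each subset the cKO and WT libraries overlapped.

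Ets1, which encodes a factor best known from lymphocytes, was the member with the largest genotype effect. In cDC2s it fell from 8.55, 9.0 and 9.93 TPM in WT to 2.48, 2.16 and 2.25 TPM in cKO libraries. Every cKO cDC2 library was below every WT one, and mean TPM was 3.99-fold lower. The log2 fold change was −1.62 (SE 0.11, adjusted p 3.02e-05), and Ets1 was called in cDC2s in 19 of 19 alternative settings, with adjusted p between 5.91e-06 and 0.00186. In cDC1s it was low, at 0.63 and 0.62 TPM in WT and 0.93 and 0.85 TPM in cKO libraries, where 3 reads on a transcript of 2000 bases are worth 0.146 to 0.154 TPM in the cDC1 libraries. The cDC1 effect was 0.22 (95% interval −0.09 to 0.53, adjusted p 0.242). The effect in cDC1s minus that in cDC2s was 1.84 (SE 0.18, adjusted p 4.41e-04). In pDCs Ets1 was 112, 129 and 110 TPM in WT and 93.3, 101 and 91.6 TPM in cKO libraries, without overlap. The pDC fold change was −0.29 (SE 0.08, adjusted p 0.0849, and 0.0118 with the replicate number as a block), which did not pass the threshold. In WT cells, the log2 fold change of cDC1s over cDC2s was −2.64 (SE 0.13, adjusted p 9.56e-08), and mean TPM in pDCs (117 ± 10.4, SD, n = 3) was above that in cDC2s (9.16 ± 0.70, SD, n = 3).

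Since lymphocytes express Ets1, T cell and B cell markers were read in the same libraries. Summed over the 9 of 10 T cell markers listed, they were at 79.3 to 96.9 TPM in WT and 29.7 to 32.7 TPM in cKO cDC2s. Tcf7, which encodes the factor TCF1, made up most of that sum and fell from 71.0 to 87.3 TPM in WT to 24.1 to 25.8 TPM in cKO cDC2s (log2 fold change −1.60, SE 0.23, adjusted p 0.00160). Cd3e, a subunit of the T cell receptor complex, was at 0.71 to 1.11 TPM in WT and 0.51 to 0.65 TPM in cKO cDC2s. B cell markers, 8 in all, summed to 69.3 to 79.4 TPM in WT and 55.5 to 58.1 TPM in cKO cDC2s. Of 5 tested 2 fell in cDC2s, where 3.56% of all genes were called lower. These were Blk, from a mean of 16.1 to 3.54 TPM, and Ms4a1, from 16.9 to 5.35 TPM. In pDCs the T cell marker sum was instead higher in cKO (53.6 to 74.4 TPM) than in WT libraries (15.7 to 24.0 TPM), led by Thy1 and Lat. The part of other cells in the Ets1 values was not tested.

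Fli1 lies 92808 bases from Ets1 on chromosome 9 (GRCm38.p6) and encodes an ETS factor of blood and endothelial cells. It was at 52.0, 45.7 and 54.8 TPM in WT and 60.3, 48.1 and 55.2 TPM in cKO pDCs. In cDC1s it was 28.5 and 38.3 TPM in WT and 41.4 and 37.3 TPM in cKO libraries, and in cDC2s 33.5, 26.8 and 31.3 TPM in WT and 33.6, 30.7 and 29.3 TPM in cKO libraries. The genotypes overlapped in all 3 subsets, with fold changes of 0.10 (95% interval −0.14 to 0.33) in pDCs, 0.24 (−0.10 to 0.59) in cDC1s and 0.03 (−0.25 to 0.32) in cDC2s. WT cDC1s and WT cDC2s differed by 0.12 (SE 0.14, adjusted p 0.518).

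Etv6 encodes an ETS repressor with roles in hematopoiesis and DC specification, and it was lower in cKO cDCs. In cDC1s it was 143 and 137 TPM in WT and 97.7 and 96.8 TPM in cKO libraries, and in cDC2s 138, 118 and 144 TPM in WT and 115, 84.8 and 107 TPM in cKO libraries. The genotypes did not overlap in either cDC subset. The fold change was −0.52 (SE 0.15, adjusted p 0.0180) in cDC1s and −0.39 (SE 0.12, adjusted p 0.0458) in cDC2s, and neither passed the threshold as deposited. Over the scalings tried, the cDC1 value passed with median-of-ratios scaling (−0.69, adjusted p 0.00268), quantile normalization (−0.67, adjusted p 0.00378) and FPKM (−0.58, adjusted p 0.00373). Over all alternatives Etv6 was called in cDC1s in 8 of 20, and with 1 library left out the effect was −0.55 to −0.49. In pDCs Etv6 was 111, 114 and 98.2 TPM in WT and 90.9, 108 and 83.3 TPM in cKO libraries, which overlapped. The pDC effect was −0.20 (SE 0.10, adjusted p 0.314, and 0.0633 with the replicate number as a block). The cDC1 and cDC2 effects differed by −0.13 (95% interval −0.55 to 0.29, adjusted p 0.652). The WT libraries of cDC1s and cDC2s overlapped in level and differed by 0.07 (SE 0.13, adjusted p 0.684).

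Elf1 encodes an ETS factor expressed across hematopoietic cells. In pDCs it was 191, 169 and 189 TPM in WT and 182, 166 and 156 TPM in cKO libraries. In cDC2s it was 144, 122 and 154 TPM in WT and 139, 103 and 121 TPM in cKO libraries, and in cDC1s 85.5 and 92.1 TPM in WT and 101 and 94.5 TPM in cKO libraries. WT levels fell in the order pDCs, cDC2s, cDC1s without overlap, and both cKO cDC1 libraries were above both WT ones. The log2 fold change of WT cDC1s over WT cDC2s was −0.64 (SE 0.14, adjusted p 0.00310), a call that was lost with median-of-ratios scaling (−0.45, adjusted p 0.0116), without WT cDC1 library 1 (adjusted p 0.0293) and without WT cDC1 library 2 (adjusted p 0.0137). Genotype effects were −0.12 (SE 0.08) in pDCs, 0.13 (SE 0.15) in cDC1s and −0.21 (SE 0.12) in cDC2s, with adjusted p of 0.425, 0.507 and 0.255, and the cDC1 sign turned to −0.04 with median-of-ratios scaling and −0.03 with quantile normalization.

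**Figure D2:**
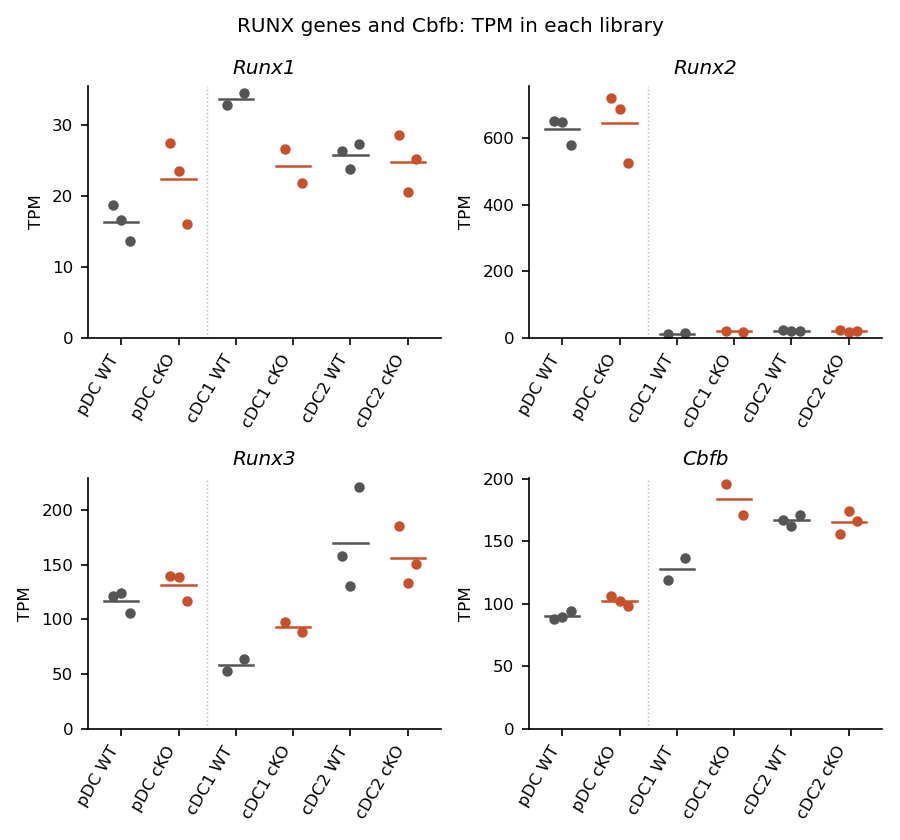
Levels of Runx1, Runx2, Runx3 and Cbfb in each library, as TPM on axes that start at 0; points are libraries, horizontal lines are group means, WT in grey and cKO in orange. Runx2 was at 525 to 721 TPM in pDCs and at 22.7 TPM or less in cDCs, and both cKO cDC1 libraries were above both WT ones for Runx2, Runx3 and Cbfb and below them for Runx1. The share of all genes that separate in this way was not taken.

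Runx2, known as the master factor of bone formation and also a factor of pDC maturation and exit from the marrow, was the leading RUNX gene of pDCs. It was at 652, 647 and 579 TPM in WT and 721, 688 and 525 TPM in cKO pDCs, rank 228 of 17128 genes in both genotypes. In cDC1s it was 10.7 and 13.8 TPM in WT and 20.1 and 17.6 TPM in cKO libraries, and in cDC2s 22.7, 18.5 and 20.2 TPM in WT and 22.6, 15.5 and 20.6 TPM in cKO libraries. The cDC1 genotypes did not overlap, with a fold change of 0.59 (SE 0.19, adjusted p 0.0292) that did not pass the threshold. The effect was 0.03 (95% interval −0.25 to 0.30, adjusted p 0.913) in pDCs and −0.07 (−0.41 to 0.27, adjusted p 0.778) in cDC2s. The log2 fold change of WT cDC1s over WT cDC2s was −0.70 (SE 0.17, adjusted p 0.00640), and this call held in only 8 of 19 alternatives, with adjusted p up to 0.0695.

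Runx3, which in DCs and lymphocytes controls integrins and TGF-β responses, led the RUNX genes in cDCs. In cDC2s it was 158, 131 and 221 TPM in WT and 185, 133 and 150 TPM in cKO libraries, and in cDC1s 53.1 and 63.6 TPM in WT and 97.4 and 88.3 TPM in cKO libraries. The WT cDC2 libraries spread widely and covered the cKO ones, whereas both cKO cDC1 libraries were above both WT ones. The log2 fold change of WT cDC1s over WT cDC2s was −1.497 (SE 0.21, adjusted p 1.92e-04), and this call held in 19 of 19 alternatives. The cDC1 effect was 0.66 (SE 0.23, adjusted p 0.0401), which passed only with the cDC1 libraries fitted alone (adjusted p 0.00535), without WT cDC2 library 3 (adjusted p 0.00954) and at the looser limit of an adjusted p of 0.05. In cDC2s it was −0.10 (95% interval −0.51 to 0.31, adjusted p 0.742). In pDCs Runx3 was 122, 124 and 106 TPM in WT and 139, 139 and 117 TPM in cKO libraries, which overlapped. The pDC effect was 0.17 (SE 0.09, adjusted p 0.336, and 0.0575 with the replicate number as a block).

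Runx1, a factor of blood stem cells and of most myeloid and lymphoid lineages, was the lowest RUNX gene in pDCs, at 18.7, 16.7 and 13.6 TPM in WT and 27.5, 23.5 and 16.1 TPM in cKO libraries. In cDC1s it was 32.9 and 34.5 TPM in WT and 26.7 and 21.8 TPM in cKO libraries, and in cDC2s 26.4, 23.9 and 27.3 TPM in WT and 28.6, 20.5 and 25.2 TPM in cKO libraries. Both cKO cDC1 libraries were below both WT ones, and the other subsets overlapped. The cDC1 effect was −0.47 (SE 0.16, adjusted p 0.0384) as deposited, and it passed the threshold with median-of-ratios scaling (−0.63, adjusted p 0.00575), quantile normalization (−0.62, adjusted p 0.00629) and FPKM (−0.51, adjusted p 0.00904). Runx1 was called in cDC1s in only 4 of 20 alternatives, and with 1 library left out the effect was −0.60 to −0.33. In pDCs it was 0.41 (SE 0.19, adjusted p 0.283, and 0.0218 with the replicate block) and in cDC2s −0.07 (SE 0.13, adjusted p 0.748). WT cDC1s exceeded WT cDC2s by 0.37 (SE 0.14, adjusted p 0.0533), which passed only with median-of-ratios scaling (0.56, adjusted p 0.00396) and quantile normalization (0.52, adjusted p 0.00589).

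The share of each RUNX gene in the sum of the 3 is taken within a library and does not change with scaling. In WT pDCs Runx2 made up 82.2 to 82.9% of that sum, Runx3 15.1 to 15.7% and Runx1 1.95 to 2.36%. In WT cDC2s Runx3 made up 75.5 to 82.3%, Runx1 10.2 to 13.8% and Runx2 7.51 to 10.9%. WT cDC1s had the most even mixture, with Runx3 at 54.9 and 56.9%, Runx1 at 34.0 and 30.8% and Runx2 at 11.04 and 12.3%. In cKO cDC1s Runx1 was at 18.5 and 17.1%, Runx3 at 67.6 and 69.1% and Runx2 at 13.9 and 13.8%, all outside the WT range. In cKO cDC2s the shares lay within the WT range for each of the 3 genes, with Runx1 at 12.1 to 12.9%. In cKO pDCs Runx2 was at 79.7 to 81.2%, below the WT range, and Runx1 at 2.44 to 3.09%, above it. These shares were not tested.

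**Figure D3:**
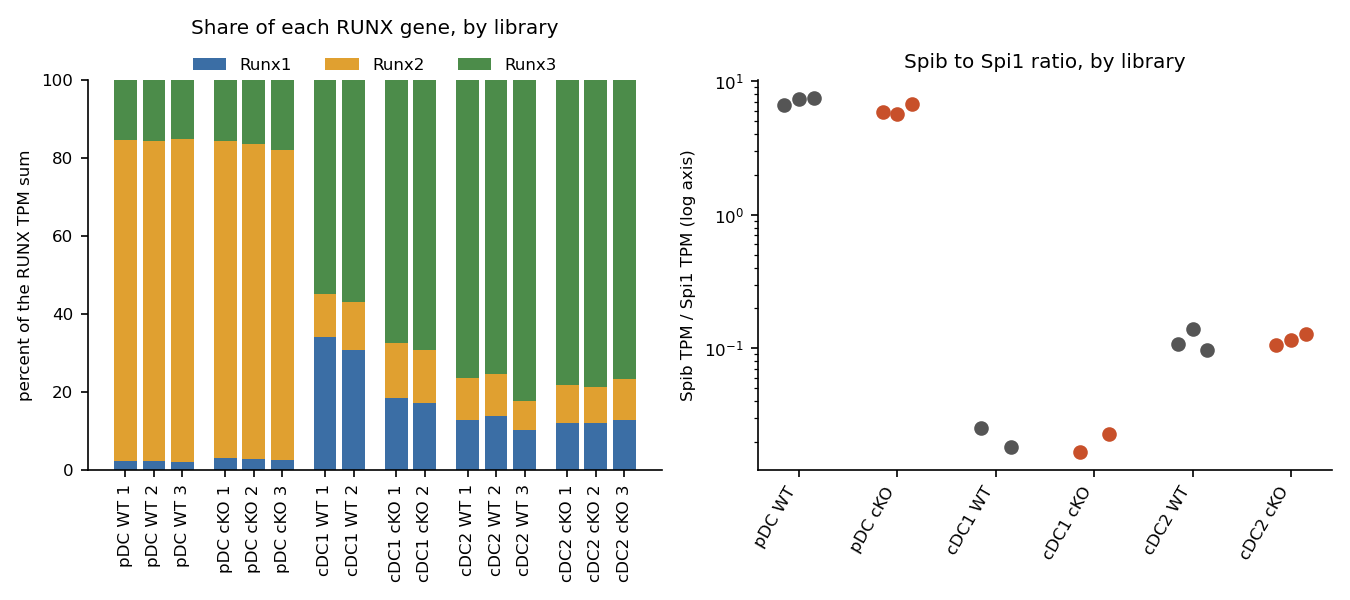
Left, the percent of the summed TPM of Runx1, Runx2 and Runx3 that each gene took in each of the 16 libraries; right, Spib TPM over Spi1 TPM in each library on a log axis, WT in grey and cKO in orange. Runx2 fills 79.7 to 82.9% of the pDC bars, and Runx1 shrinks from 34.0 and 30.8% in WT to 18.5 and 17.1% in cKO cDC1s.

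Cbfb, the shared partner of the RUNX proteins, rose in cKO cDC1s from 119 and 137 TPM in WT to 196 and 171 TPM, a 1.43-fold difference in mean TPM without overlap. The fold change was 0.52 (SE 0.11, adjusted p 0.00442), and the median of all genes in this contrast was 0.17. The call was lost with FPKM (0.45, adjusted p 0.0130), quantile normalization (0.35, adjusted p 0.0367), median-of-ratios scaling (0.34, adjusted p 0.0553), the cDC1 libraries alone (adjusted p 0.0104), and without cKO cDC1 library 1 (adjusted p 0.0543), cKO cDC1 library 2 (adjusted p 0.0126) or WT cDC1 library 1 (adjusted p 0.0427). In cDC2s Cbfb was 167, 162 and 171 TPM in WT and 156, 175 and 166 TPM in cKO libraries, and the effect was −0.01 (95% interval −0.21 to 0.19, adjusted p 0.940). In pDCs Cbfb was 87.9, 89.7 and 94.2 TPM in WT and 106, 102 and 98.1 TPM in cKO libraries, without overlap. The pDC effect was 0.17 (SE 0.06, adjusted p 0.152, and 0.0926 with the replicate number as a block). The cDC1 and cDC2 effects differed by 0.53 (SE 0.14, adjusted p 0.0402), and the log2 fold change of WT cDC1s over WT cDC2s was −0.38 (SE 0.10, adjusted p 0.00922), under the fold limit.

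**Figure D4:**
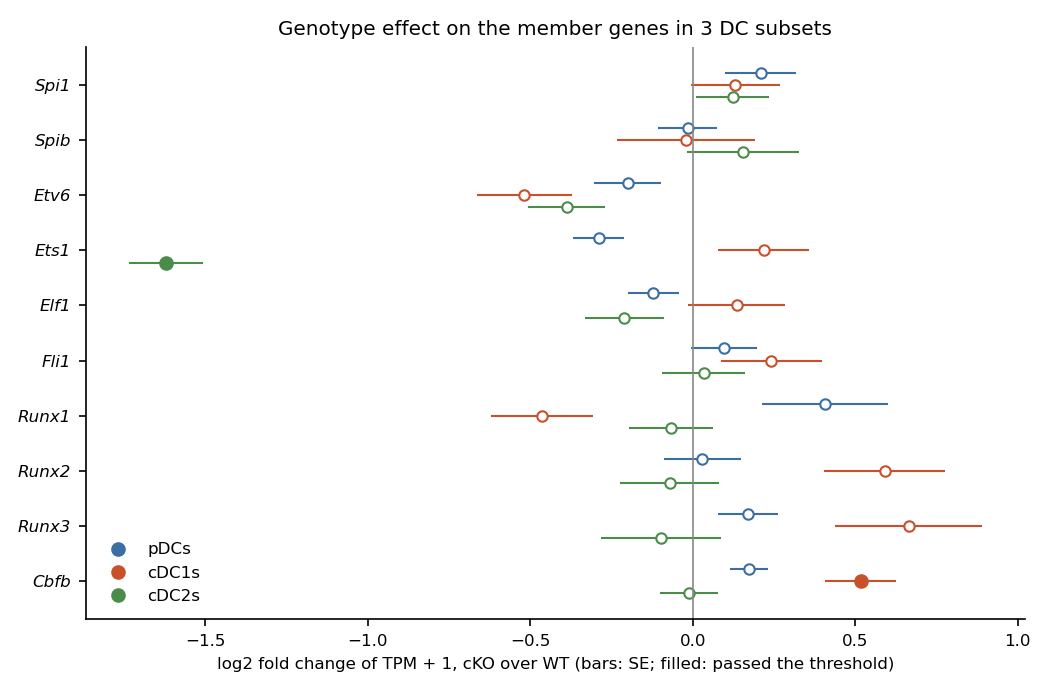
Genotype effect on each member gene in pDCs (blue), cDC1s (red) and cDC2s (green), as the log2 fold change of TPM + 1 in cKO over WT with its SE; filled points passed the threshold. Ets1 in cDC2s (−1.62) and Cbfb in cDC1s (0.52) are the filled points.

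Counted over the members, 0 of 10 were called in pDCs, where limma called 1.05% of 11299 genes (0.814% higher and 0.239% lower). Trim33 itself was not called there either. Of the members, 2 of 10 had an unadjusted p under 0.05 in pDCs. The share of all genes at an unadjusted p under 0.05 was not taken, here or for the lists below. With the replicate block, 2.96% of genes and again 0 members were called in pDCs, with adjusted p of the members between 0.0118 and 0.880. In cDC1s 1 of 10 was called (Cbfb, higher), against 22.4% of 11411 genes, of which 15.8% were higher and 6.56% lower. With median-of-ratios scaling 18.7% of genes were called in cDC1s, with quantile normalization 17.7% and with FPKM 20.6%, and each of these called 2 members, Etv6 and Runx1, both lower. In cDC2s 1 of 10 was called (Ets1, lower), against 7.15% of genes, 3.59% higher and 3.56% lower. For the difference between the cDC effects 1 of 10 was called (Ets1), against 2.56% of genes. Between WT cDC1s and WT cDC2s 5 of 10 were called, all lower in cDC1s (Spib, Ets1, Elf1, Runx2 and Runx3), against 31.7% of genes in either direction and 20.8% lower. The median fold change of the members was 0.06 in pDCs, 0.18 in cDC1s and −0.07 in cDC2s, beside −0.05, 0.17 and −0.03 over all genes.

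Some other ETS family genes changed in cKO cDCs too. Of 20 on the list 12 were tested in each subset. In cKO cDC1s 3 rose and 3 fell, where 15.8% of all genes were called higher and 6.56% lower. Etv5, which encodes an activator of the PEA3 group induced by growth factor signaling, rose from 1.44 and 1.51 TPM in WT to 6.00 and 5.45 TPM in cKO cDC1s (log2 fold change 1.44, SE 0.16, adjusted p 1.69e-04). Etv3, which encodes an ETS repressor, fell 4.81-fold in mean TPM in cDC1s, from 124 and 136 TPM to 26.2 and 27.8 TPM (−2.22, SE 0.22, adjusted p 1.02e-04). Spic, a relative of Spi1 known from iron-recycling macrophages, fell in cDC1s from 7.29 to 11.7 TPM to 1.25 to 1.51 TPM (−2.11, SE 0.31, adjusted p 7.61e-04). Ehf, an epithelial ETS gene also expressed in DCs, fell in cDC1s from 3.23 to 3.79 TPM to 0.66 to 0.67 TPM (−1.43, SE 0.12, adjusted p 5.04e-05). Gabpa and Erf, named to complete the count, rose in cDC1s by 0.55 and 0.54.

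In cDC2s 1 of 12 rose and 1 fell, where 7.15% of all genes were called. Etv5 rose there from 6.27 to 7.55 TPM in WT to 12.6 to 17.3 TPM (0.98, SE 0.13, adjusted p 0.00110). Etv3 fell from 103 to 170 TPM to 55.3 to 70.0 TPM (−1.25, SE 0.18, adjusted p 0.00162). Spic and Ehf differed between the cDC effects, by −2.35 (SE 0.41, adjusted p 0.00784) and −1.18 (SE 0.16, adjusted p 0.00236). In pDCs limma called 0 of 12, where it called 1.05% of all genes. Apart from the calls, 2 of the 12 had an unadjusted p under 0.05. Etv5 in pDCs was 4.42 to 10.3 TPM in WT and 22.8 to 24.7 TPM in cKO libraries (1.66, SE 0.23, adjusted p 0.0105), just outside the threshold. The median fold change of the list was 0.10 in pDCs, 0.16 in cDC1s and −0.16 in cDC2s.

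**Figure D5:**
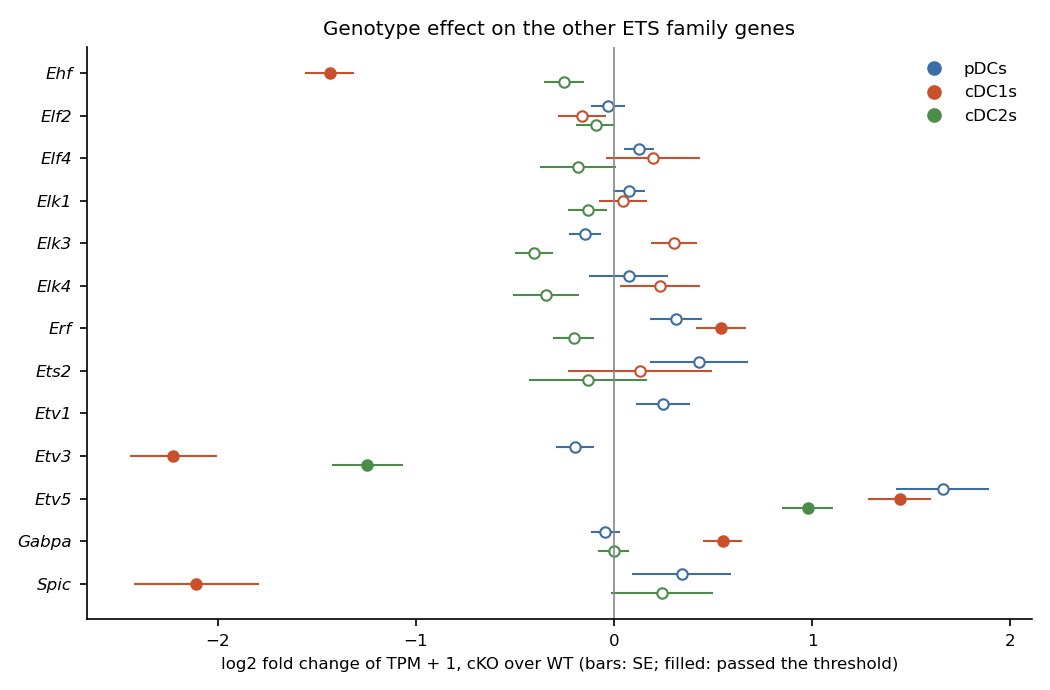
Genotype effect on the tested genes of the other ETS family list in pDCs (blue), cDC1s (red) and cDC2s (green), as the log2 fold change of TPM + 1 in cKO over WT with its SE; filled points passed the threshold. Etv3 and Etv5 are filled in both cDC subsets, at −2.22 and 1.44 in cDC1s and −1.25 and 0.98 in cDC2s.

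Genes known as PU.1 targets or partners were read beside Spi1. In cDC2s 6 of 22 rose and 1 fell, where 7.15% of all genes were called. Fcgr2b, which encodes the inhibitory Fc receptor, rose from 68.7 to 148 TPM in WT to 732 to 776 TPM in cKO cDC2s (2.93, SE 0.21, adjusted p 3.55e-05). Msr1 and Fcgr1 also rose in cDC2s, by 1.34 and 1.15, and Irf4, the PU.1 partner of cDC2s, fell by 1.08 (SE 0.19, adjusted p 0.00400). In cDC1s 3 of 22 rose, Itgam (2.10), Cybb (1.44) and Csf1r (0.85), and Fcgr3 fell by 0.84, so that 4 of 22 were called where 22.4% of all genes were. In pDCs 2 of 19 tested genes rose, Itgam from 1.30 to 2.48 TPM to 16.2 to 25.4 TPM (2.92, SE 0.20, adjusted p 9.52e-04) and Fcgr2b (1.23, SE 0.12, adjusted p 0.00257), and 0 fell, where 1.05% of all genes were called. Mean TPM of Itgam was 11.2-fold higher in cKO pDCs, 6.31-fold in cKO cDC1s and 2.05-fold in cKO cDC2s. Only cKO mice carried Cre under the Itgax promoter, and its part in the Itgam values was not tested. The median fold change of the list was −0.04 in pDCs, 0.02 in cDC1s and 0.21 in cDC2s. Beside these, summed TPM of 9 monocyte and macrophage markers, Csf1r among them, was 1310 to 1780 in WT and 2604 to 3356 in cKO cDC2s. Lyz2 made up most of that rise, from 617 to 1048 TPM in WT to 1945 to 2449 TPM in cKO cDC2s. Of the 9 markers 7 had a positive fold change and 2 a negative one, and limma called 2 higher and 0 lower. Adgre1 was lower, at 180 to 187 TPM in WT and 147 to 152 TPM in cKO cDC2s. The part of monocytes or macrophages in the list's values was not tested.

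Surface genes linked to RUNX factors in lymphocytes or DCs changed in both cDC subsets. Of 6 tested in cDC1s, 1 rose and 3 fell, where 15.8% of all genes were called higher and 6.56% lower. Itgae, which encodes the integrin chain CD103, fell from 62.0 and 77.7 TPM to 9.63 and 10.1 TPM (−2.70, SE 0.27, adjusted p 1.02e-04), Esam by 2.29 and Cd4 by 1.90, and the chemokine receptor gene Ccr2 rose by 2.10. In cDC2s Cd4 fell from 261 to 366 TPM to 108 to 135 TPM (−1.37, SE 0.15, adjusted p 4.78e-04), Esam fell by 1.17 and Ccr2 rose by 1.503. These were 1 of 6 higher and 2 lower, where 7.15% of all genes were called in cDC2s. In pDCs limma called 0 of 4 tested genes, where it called 1.05% of all genes. Apart from the calls, 2 of the 4 had an unadjusted p under 0.05. Limma called 0 of the 6 tested RUNX corepressor genes (the Tle and Cbfa2t families) in any genotype contrast. It called 1.05%, 22.4% and 7.15% of all genes in pDCs, cDC1s and cDC2s. Of the 6 genes, 0, 1 and 3 had an unadjusted p under 0.05 in the same order, a limit with no share over all genes taken.

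Genes of DC maturation moved with genotype in the same cDC libraries. In cDC1s 11 of 12 fell and 0 rose, where 6.56% of all genes were called lower. The list was chosen with earlier results of these data known. Ccr7, the receptor that takes DCs to lymph nodes, fell in cDC1s from 417 and 694 TPM to 18.5 and 33.7 TPM. Summed TPM of the 12 genes was 1981 and 2541 in WT and 469 and 571 in cKO cDC1s, and 1492 to 2019 in WT and 916 to 1107 in cKO cDC2s. In cDC2s 4 of 12 fell and 0 rose, where 3.56% of all genes were called lower. Markers of other cells were read in the same cDC1 libraries: 8 neutrophil markers summed to 1.53 to 17.2 TPM in WT and 22.7 to 42.3 TPM in cKO, with 0 of 5 tested called by limma and 1 at an unadjusted p under 0.05. Of 6 NK cell markers Klrk1 alone rose, from a mean of 52.6 to 105.7 TPM, and the other 5 had a mean of at most 1.12 TPM in either cDC1 genotype. The part of maturation or of other cells in the lower Etv6 and Runx1 and the higher Runx3 and Cbfb values of cKO cDC1s was not tested.

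Over the 10 cDC libraries, the genes whose log2 values followed each member most closely were found among 11411 genes by Pearson's r, leaving out the members. Ets1 was followed by Tmod2 (r 0.997), Six5 (0.996) and Kcnk5 (0.994). Tmod2, which encodes a tropomodulin that caps actin filaments, went from 10.2 to 11.5 TPM in WT cDC2s to 1.85 to 2.11 TPM in cKO cDC2s and stayed at 0.56 TPM or less in cDC1s. Spib was followed by Il2rg (0.997), the gene of the common cytokine receptor chain, and by Fut4 (0.996) and Adap1 (0.996). For Spi1 the closest were Blcap (0.985), Eml2 (0.976) and Pik3r6 (0.966), for Etv6 Fam102a (0.960), Dyrk1b (0.959) and Rps6kc1 (0.957), and for Runx1 Rragc (0.950), Zbtb8b (0.949) and Cyp4v3 (0.941). These points share subset and genotype groups, so the values describe a common pattern over 4 groups.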

How the data were processed

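RNA-seq values of 16 libraries were used. The authors read single-end 50-base reads, mapped them with Bowtie2 2.2.5 and estimated expression per gene with RSEM 1.2.12. The study names mm10 for its genome alignments with HISAT2 2.0.4 and no release for the transcript reference. The values used are TPM as the authors deposited them, with pDCs and cDCs in separate tables. FPKM, also deposited, served as an alternative. Gene IDs were matched to RefSeq, which named 17079 of 17128 and 17667 of 17721 genes.

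Groups came from the sample titles. Genes averaging 1 TPM or more over the fitted libraries were fitted as log2(TPM + 1) with limma 3.58.1 (lmFit, eBayes with trend) in R 4.3.3, in place of the study's count model, since no counts were used, and two-sided p values were adjusted by Benjamini-Hochberg over 11299 (6 pDC libraries) or 11411 genes (10 cDC libraries, 4 group means). All 10 members passed the filter in both tables. Depth was estimated from the steps of low FPKM values, and limits from it cover counting error only. Fits and depth estimates were tested on simulated data. Replicates of a group correlated at r = 0.981 to 0.994 across genes. Replicate numbers were checked by the correlation of deviations from group means: same-numbered pDC libraries gave 0.310, 0.392 and 0.206. The main fits, also those of pDCs, used no block. Fits with the replicate number as a block were run as alternatives, and pDC p-values given without a named block leave this pairing out. The genes named are the members, and from each list the genes called by genotype, at most 4 by size. The members and lists were chosen with earlier results of these data known.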

Additional observations from a re-analysis of the deposited data

Results flagged for a closer look

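Ets1 was the member whose genotype effect differed between the cDC subsets: the effect in cDC1s minus that in cDC2s was 1.84 on the log2 scale (SE 0.18, adjusted p 4.41e-04 from limma), with adjusted p between 1.32e-04 and 0.00952 over 18 alternatives. The WT level of Ets1 in cDC1s, 0.62 and 0.63 TPM, left little room for a fall there. In pDCs every cKO library was below every WT library for Ets1 (log2 fold change −0.29), whereas in cDC1s every cKO library was above every WT library (0.22). The median of all genes as deposited was −0.05 in pDCs and 0.17 in cDC1s, close to the cDC1 value of Ets1. Over 19 alternatives the cDC1 value was 0.12 to 0.30. The share of all genes without overlap was not taken. This difference between pDCs and cDC1s lies across tables that were made separately, was not tested, and neither effect passed the threshold by itself.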

How the results depend on the processing

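Of 899 values of single members under alternatives, 819 kept their direction and side of the threshold, 22 newly passed it, 22 no longer did and 36 changed sign. None of the 36 was called, and the cause of each change was not tested.

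In pDCs the number of genes called by genotype was 24 without the filter on low values, 56 without the trend, 514 at an adjusted p of 0.05 with no fold limit and 335 with the replicate number as a block, and 12 to 97 when 1 library was left out, against 119. The block changed no call of a member in pDCs. With the cDC1 libraries fitted alone, 2746 genes were called by genotype in cDC1s, against 2555. In cDC1s 4522 genes were called at the looser limit and 800 to 2888 when 1 library was left out, against 2555. Of the 10 members, 2 were called in cDC1s with FPKM, 2 with median-of-ratios scaling, 2 with quantile normalization, 5 at the looser limit, 2 with the cDC1 libraries alone and 0 to 2 when 1 library was left out, against 1. In cDC2s 2274 genes and 2 members were called at the looser limit, 356 genes with the replicate block, 444 with the cDC2 libraries alone and 316 to 907 when 1 library was left out, against 816 and 1. For the difference between the cDC effects the looser limit gave 1286 genes and 2 members, the replicate block 95 genes and leaving out 1 library 77 to 282, against 292 and 1. Between WT cDC1s and WT cDC2s 5557 genes were called at the looser limit, and 3 to 5 members when 1 library was left out, against 3612 and 5.

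The cDC libraries shared only a number: same-numbered libraries correlated at −0.233 in cDC1s and at −0.249, 0.253 and −0.165 in cDC2s. With these numbers as a block Etv6 was called in cDC1s (adjusted p 0.00861) and Cbfb was not (adjusted p 0.0173), and Runx2 was no longer called between WT cDC1s and WT cDC2s (adjusted p 0.0161). A crossed pairing of cDC1s, chosen after seeing the data, called 2091 genes and 2 members, Etv6 and Cbfb.

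Signs that changed were of small effects. With FPKM they were Spib in pDCs (0.014), Cbfb in cDC2s (0.030) and Spi1 for the difference between the cDC effects (−0.10). With median-of-ratios scaling they were Spib in pDCs (0.023), Spi1 (−0.042) and Elf1 (−0.037) in cDC1s, Cbfb in cDC2s (0.039), and for the difference Spi1 (−0.22) and Fli1 (−0.010). With quantile normalization they were Elf1 in cDC1s (−0.025), Cbfb in cDC2s (0.0038) and Spi1 for the difference (−0.13). Leaving out 1 library gave −0.089 to 0.080 for Spib and −0.058 to 0.17 for Runx2 in pDCs, and −0.33 to 0.29 for Spib in cDC1s. In cDC2s it gave −0.055 to 0.10 for Fli1, −0.17 to 0.057 for Runx1, −0.18 to 0.079 for Runx2, −0.27 to 0.11 for Runx3 and −0.051 to 0.030 for Cbfb. For the difference it gave −0.10 to 0.11 for Spi1 and −0.49 to 0.14 for Spib, and for WT cDC1s against WT cDC2s −0.013 to 0.13 for Etv6 and −0.089 to 0.32 for Fli1.

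The median of all genes in cDC1s was 0.17 as deposited, 0.02 with median-of-ratios scaling, 0.04 with quantile normalization and 0.10 with FPKM, so the sizes of all cDC1 effects are relative to the scaling. With 2 libraries per cDC1 group, leaving 1 out assumes that the lone library varies like the other groups. The pDC and cDC tables allow no test across them. Ets1 in cDC1s lies at a low level, 0.62 to 0.93 TPM, where 3 reads on a transcript of 2000 bases are worth 0.146 to 0.154 TPM.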

Other observations

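The sum of Runx1, Runx2 and Runx3 TPM was 699 to 792 in WT pDCs, 173 to 269 in WT cDC2s and 96.7 and 112 in WT cDC1s. Against Cbfb, whose product pairs with each of the RUNX proteins, the sum was 7.42 to 9.01 times the Cbfb level in WT pDCs, 1.07 to 1.57 times in WT cDC2s and 0.813 and 0.817 times in WT cDC1s. In cKO libraries the ratio was 6.71 to 8.36 in pDCs, 0.971 to 1.52 in cDC2s and 0.737 and 0.746 in cDC1s. The cKO cDC1 ratios were below both WT ones, and the other subsets overlapped. Runx1 over Runx3 was 0.620 and 0.542 in WT and 0.274 and 0.247 in cKO cDC1s, beside 0.123 to 0.183 in WT and 0.154 to 0.168 in cKO cDC2s.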
